A study of Mus musculus with 8 samples.

Results

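Slc8a1, Atp1b1 and Fxyd1 encode parts of the machinery that moves sodium across the membrane of the heart muscle cell. They were taken from the table by gene symbol, 3 of 23045 genes listed, and all 3 were among the 20313 genes tested. The rule used gene symbols and no measured value, but the genes were chosen with earlier results of these data known. Heart libraries of WT mice (4) were compared with those of Mettl3 KO mice (4) to ask how these transcripts differ when the m6A methyltransferase METTL3 is lost from cardiomyocytes. WT mice were Mettl3 lox/lox and Mettl3 KO mice were Mettl3 lox/lox with αMHC-MerCreMer. αMHC-MerCreMer is a Cre recombinase made in cardiomyocytes from a heart muscle myosin promoter and activated by tamoxifen. Mice of both genotypes, aged 10 to 16 weeks, had been given intraperitoneal tamoxifen at 100 µg for 1 g of body weight daily for 7 days. WT mice had no Cre, so effects of MerCreMer itself and of Mettl3 loss cannot be told apart. The labels do not say that same-genotype libraries came from separate mice, and p-values measure only the spread between these samples.

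The sodium pump (Na,K-ATPase) exports sodium and imports potassium at the expense of ATP. Its α subunit carries out transport, its β subunit brings the α subunit to the surface, and small FXYD proteins tune it. The sodium-calcium exchanger NCX1 uses the sodium gradient made by the pump to remove the calcium that enters cardiomyocytes at each beat. Inhibition of the pump by cardiac glycosides raises cell sodium and, through the exchanger, cell calcium.

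Values are normalized read counts, which are read counts per gene scaled by the authors to make libraries comparable. Library sums lay between 2839589 and 2916986, and rested on 2631904 to 3061260 recovered reads. A count of 0 allows up to 3 reads, or 2.78 to 3.33 normalized read counts depending on the library, for counting error only. Mettl3 itself was between 105 and 133 in WT and between 68 and 78 in Mettl3 KO libraries, without overlap (log2 fold change -0.67 ± 0.10 as SE, adjusted p = 0.000184 by limma). The tissue label was met by 8 cardiomyocyte markers, which summed to between 89542 and 99970 in all libraries. Of these 8 markers 1 was called lower, Ryr2, with 9666 to 10427 in WT and 7975 to 9017 in Mettl3 KO. The libraries were not uniform in atrial transcripts. The summed level of Myl7, Sln and Bmp10 was 0 to 38 in WT, 33 in Mettl3 KO 1 and 277 to 541 in the other Mettl3 KO libraries, and all 3 were called higher. Of 8 fibroblast markers 7 were called higher, and their sum ranged from 3648 to 4172 in WT and from 4711 to 5671 in Mettl3 KO. Of 8 endothelial markers 3 were called lower and 1 higher, with sums of 4825 to 4975 in WT and 4407 to 4786 in Mettl3 KO. Smooth muscle and pericyte markers summed to 4502 to 4901 in WT and 4191 to 4496 in Mettl3 KO, with 1 of 8 called lower, the abundant Abcc9. Without Abcc9 the sums overlapped, at 2397 to 2599 in WT and 2304 to 2587 in Mettl3 KO, and 4 of the 7 markers had a higher mean in Mettl3 KO.

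None of Slc8a1, Atp1b1 and Fxyd1 passed the test, which called 1607 of the 20313 genes, or 7.91%. Slc8a1 was 104% of its WT mean, Atp1b1 was 112% of the WT mean, and Fxyd1 was 93.4% of it. The WT and Mettl3 KO values overlapped for each of the 3, whereas the groups did not overlap for 11.5% of all tested genes. In whole hearts, fewer cells of a type and less RNA per cell cannot be told apart.

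Slc8a1 (ENSMUSG00000054640, mm39 chr17:81680534-82045806, minus strand) encodes NCX1, the exchanger of the cardiomyocyte surface. Its normalized read counts in WT libraries 1 to 4 were 2702, 2712, 2737 and 2670. In Mettl3 KO libraries 1 to 4 they were 2934, 2773, 2865 and 2639. Mettl3 KO 1 to 3 lay above every WT library and Mettl3 KO 4 lay below every one, so the WT range sat inside the KO range. The mean was 2705 ± 27.7 in WT (SD, n = 4) and 2803 ± 128 in Mettl3 KO (SD, n = 4). The log2 fold change was 0.05 ± 0.03 (standard error, SE) with limma, and the adjusted p was 0.473. The 95% interval ran from -0.02 to 0.12, a change of -1.56 to 8.87%. The log2 fold change was 0.03 without Mettl3 KO 1 and 0.08 without Mettl3 KO 4, and neither passed. Slc8a1 was an abundant transcript, with a mean above that of 99.8% of tested genes. The coefficient of variation was 1.03% over the WT libraries and 4.55% over the Mettl3 KO libraries, beside a counting error of 1.85 to 1.98% in a single library.

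Atp1b1 (ENSMUSG00000026576, mm39 chr1:164264678-164285924, minus strand) encodes β1, the main β subunit of the pump in heart muscle. Its WT libraries 1 to 4 had normalized read counts of 722, 688, 748 and 703. The Mettl3 KO libraries 1 to 4 had 906, 767, 796 and 722. Mettl3 KO 1 to 3 lay above all WT libraries, while Mettl3 KO 4 had the same value as WT 1. The mean was 715 ± 25.9 in WT and 798 ± 78.3 in Mettl3 KO (SD, n = 4 each). The log2 fold change was 0.15 ± 0.06 (SE), with a 95% interval from 0.04 to 0.27, a change of 2.50 to 20.6%. With limma the p was 0.0130 before and 0.107 after adjustment over all tested genes, so the difference did not pass.

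The Atp1b1 result moved with the choice of libraries. Without Mettl3 KO 1, the highest library, the log2 fold change was 0.09 (adjusted p = 0.312 by limma). Without Mettl3 KO 4, the lowest, it was 0.20 and passed (adjusted p = 0.0458 by limma). With an index of the 3 atrial genes as a covariate it was 0.34 (adjusted p = 0.00426 by limma). That index was -1.6 to -0.21 in WT, -0.28 in Mettl3 KO 1 and 0.87 to 1.23 in the other Mettl3 KO libraries. Only Mettl3 KO 1, the highest library for Atp1b1, lay within the WT range. The index thus largely followed genotype, and no fit with it can separate the 2 well, for any gene. Under that covariate Slc8a1 was at 0.12 (adjusted p = 0.183 by limma) and Fxyd1 at -0.31 (adjusted p = 0.145 by limma), and neither passed. Over the 20 alternatives, the adjusted p of Atp1b1 ranged from 0.00426 to 0.312.

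Fxyd1 (ENSMUSG00000036570, mm39 chr7:30751103-30756624, minus strand) encodes phospholemman, the FXYD protein of heart and skeletal muscle that restrains the pump until it is phosphorylated. Its normalized read counts were 181, 198, 163 and 186 in WT libraries 1 to 4. They were 151, 166, 189 and 174 in Mettl3 KO libraries 1 to 4. The libraries were interleaved, with only Mettl3 KO 1 outside the WT range. The mean was 182 ± 14.5 in WT and 170 ± 15.9 in Mettl3 KO (SD, n = 4 each). The log2 fold change was -0.10 ± 0.08 in SE (adjusted p = 0.570 by limma), and its 95% interval from -0.27 to 0.07 is a change of -17.1 to 5.14%. Counting error alone was 6.84 to 8.57% per library, which limits what could be detected for Fxyd1 at this depth. Without Mettl3 KO 1 the log2 fold change was -0.04, and without WT 3 it was -0.15.

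**Figure D1:**
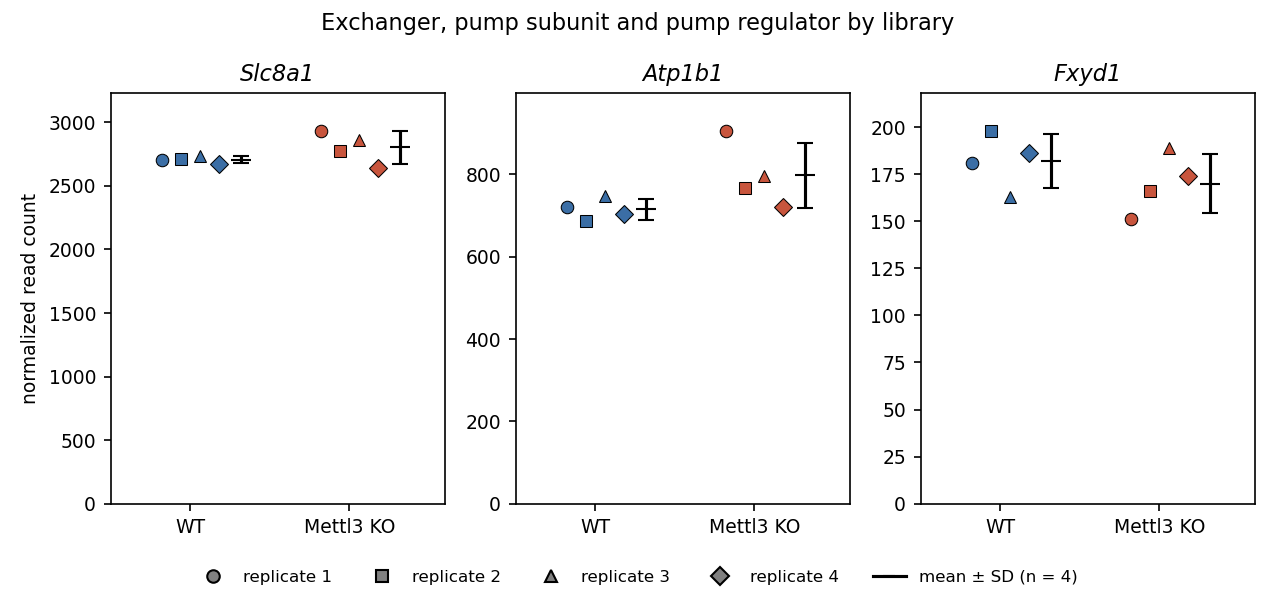
Normalized read counts (vertical axes, from 0) of Slc8a1, Atp1b1 and Fxyd1 in each of the 4 WT and 4 Mettl3 KO libraries. Symbols mark the replicate number, and bars give the mean ± SD. The groups overlapped for each gene, and Mettl3 KO 1 was the highest library for Slc8a1 and Atp1b1 and the lowest for Fxyd1.

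Slc8a1 and Atp1b1 had the same order within the Mettl3 KO libraries, with replicate 1 highest, then 3, then 2, then 4. The summed cardiomyocyte markers had this order too, at 99970, 99759, 92565 and 89542, of which Ttn made up 67610 to 76105. Within WT the orders differed, with the highest marker sum (98661) in WT 4, where Slc8a1 was lowest, and a sum of 95231 in WT 3, where Slc8a1 and Atp1b1 were highest. Among the Mettl3 KO libraries, replicate 1 had the lowest atrial sum (33) and replicate 4 the highest (541). The fits of Slc8a1 and Atp1b1 with the atrial index are given above. The part of the cardiomyocyte marker differences in their values was not tested. On the log2 scale the Pearson correlation of Slc8a1 and Atp1b1 over the 8 libraries was 0.91, and it was 0.89 after subtracting each genotype's mean. Fxyd1 ran the other way, at -0.73 with Atp1b1 and -0.46 with Slc8a1. These 8 points share their library preparation and scaling, and the correlations are descriptions.

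In a search of 6625 protein-coding genes with a mean of at least 100, the closest patterns to Slc8a1 were Mapk1ip1l (r = 0.97), Mrpl45 (0.96) and Sacm1l (0.96). Those closest to Atp1b1 were Coq5 (r = 0.98), Eef2 (0.98) and Egln1 (0.97). For Fxyd1 they were Atp5e (r = 0.97), Actr8 (0.95) and Selenoi (0.94). After the genotype means were subtracted, r remained between 0.94 and 0.99 for the 9 genes. They were picked for the highest r of the search, so these values are descriptions and were not tested. None of these 9 genes passed the test between genotypes.

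Other subunits of the pump were also examined. Among the β subunits, Atp1b3 had normalized read counts of 161, 171, 170 and 167 in WT against 194, 215, 201 and 165 in Mettl3 KO. As for Atp1b1, replicates 1 to 3 of Mettl3 KO lay above the WT range and replicate 4 did not. Its log2 fold change was 0.20 ± 0.08 in SE (adjusted p = 0.133 by limma). Atp1b2 was lower in level, at 67 to 80 in WT and 58 to 71 in Mettl3 KO, with a log2 fold change of -0.19 (adjusted p = 0.382 by limma). None of the 3 β subunit genes tested was called. Atp1a4, the α subunit of sperm, reached at most 19 in any library. The share of Atp1b1 in the summed normalized read counts of the 3 β subunits, which is free of the library scaling, was 74.7% in WT and 75.4% in Mettl3 KO. The ranges overlapped, at 73.3 to 75.9% in WT and 72.8 to 77.4% in Mettl3 KO (log2 difference 0.01, exact two-sided permutation p = 0.571, and 0.571 after adjustment over 5 ratios computed).

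The FXYD family had 1 called gene among 5 tested. Fxyd6, a pump regulator best known from the nervous system, rose with a log2 fold change of 0.55 ± 0.13 in SE (adjusted p = 0.0111 by limma). Its normalized read counts were 106, 83, 79 and 71 in WT against 166, 119, 102 and 115 in Mettl3 KO, and WT 1 overlapped the KO range. Without WT 4 the log2 fold change was 0.47 (adjusted p = 0.0586 by limma). Nerve and Schwann cell markers, 8 tested with none called, summed to 169 to 223 in WT and 172 to 247 in Mettl3 KO. The fibroblast sums given above did not overlap between genotypes, and their part in the Fxyd6 result was not tested. Fxyd5 was at 47 to 57 in WT and 43 to 56 in Mettl3 KO, Fxyd2 reached at most 15 and Fxyd7 at most 5.

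Levels of different genes were compared per kb of union exon length. In WT hearts Atp1b1 had 232 ± 8.40 normalized read counts per kb (SD, n = 4). Slc8a1 followed with 144 ± 1.47, then Fxyd1 with 83.3 ± 6.65 per kb. Neighbours in this order were separated by more than their SDs. In Mettl3 KO hearts Atp1b1 was at 259 ± 25.4 per kb, Slc8a1 at 149 ± 6.78 and Fxyd1 at 77.8 ± 7.25. In those hearts Fxyd1 and Atp1b3 (81.1 per kb) did not differ beyond their spread. The order depends on the length used. On the length of 1 principal transcript per gene, Slc8a1 had 851 ± 8.72 per kb in WT, Fxyd1 had 294 ± 23.4 and Atp1b1 had 277, with Fxyd1 and Atp1b1 within their spread. The Slc8a1 value was higher because that transcript of 3180 bases is far shorter than the 18807 bases of its union of exons. Per kb of union exon length, the other exchangers Slc8a2 and Slc8a3 had means below 2 in both genotypes. Slc8b1, the sodium-calcium exchanger of mitochondria, had 32 to 49 normalized read counts in WT and 28 to 45 in Mettl3 KO.

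**Figure D2:**
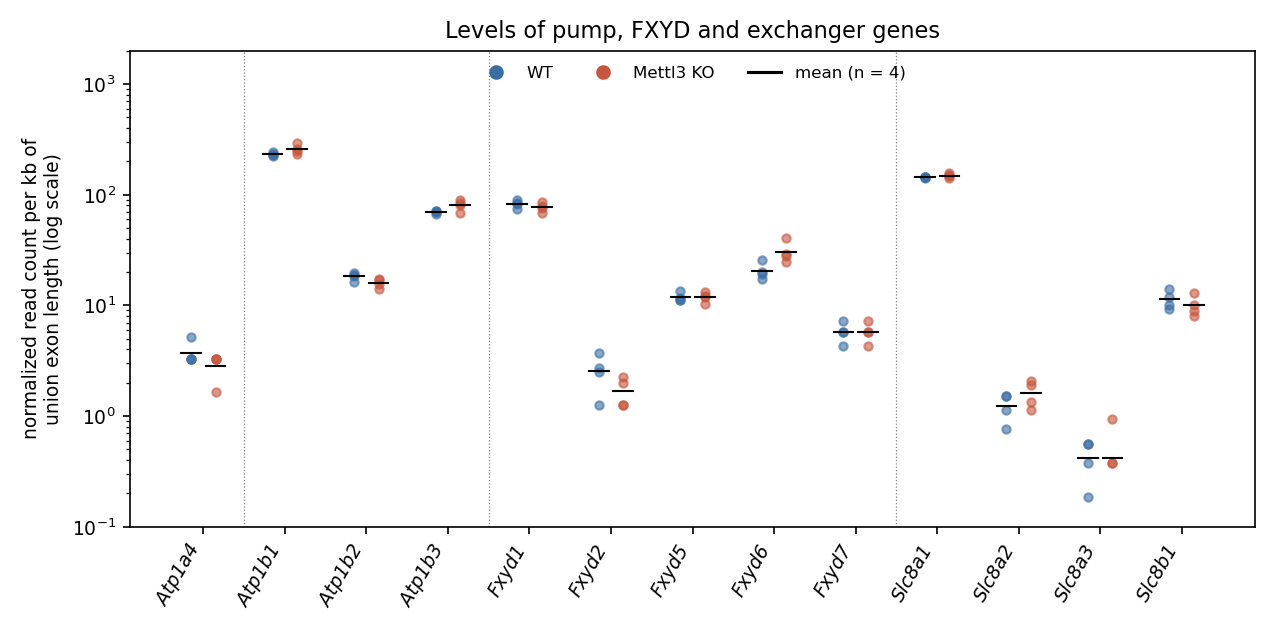
Normalized read count per kb of union exon length (log scale) for Atp1a4, the 3 β subunits, the tested FXYD regulators and sodium-calcium exchangers. Points are the libraries (4 per genotype), black lines are means, and the 1 library at 0 (Slc8a3, Mettl3 KO 4) is not drawn. Atp1b1 and Slc8a1 were above 100 per kb in both genotypes, while the means of Slc8a2 and Slc8a3 were below 2.

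**Figure D3:**
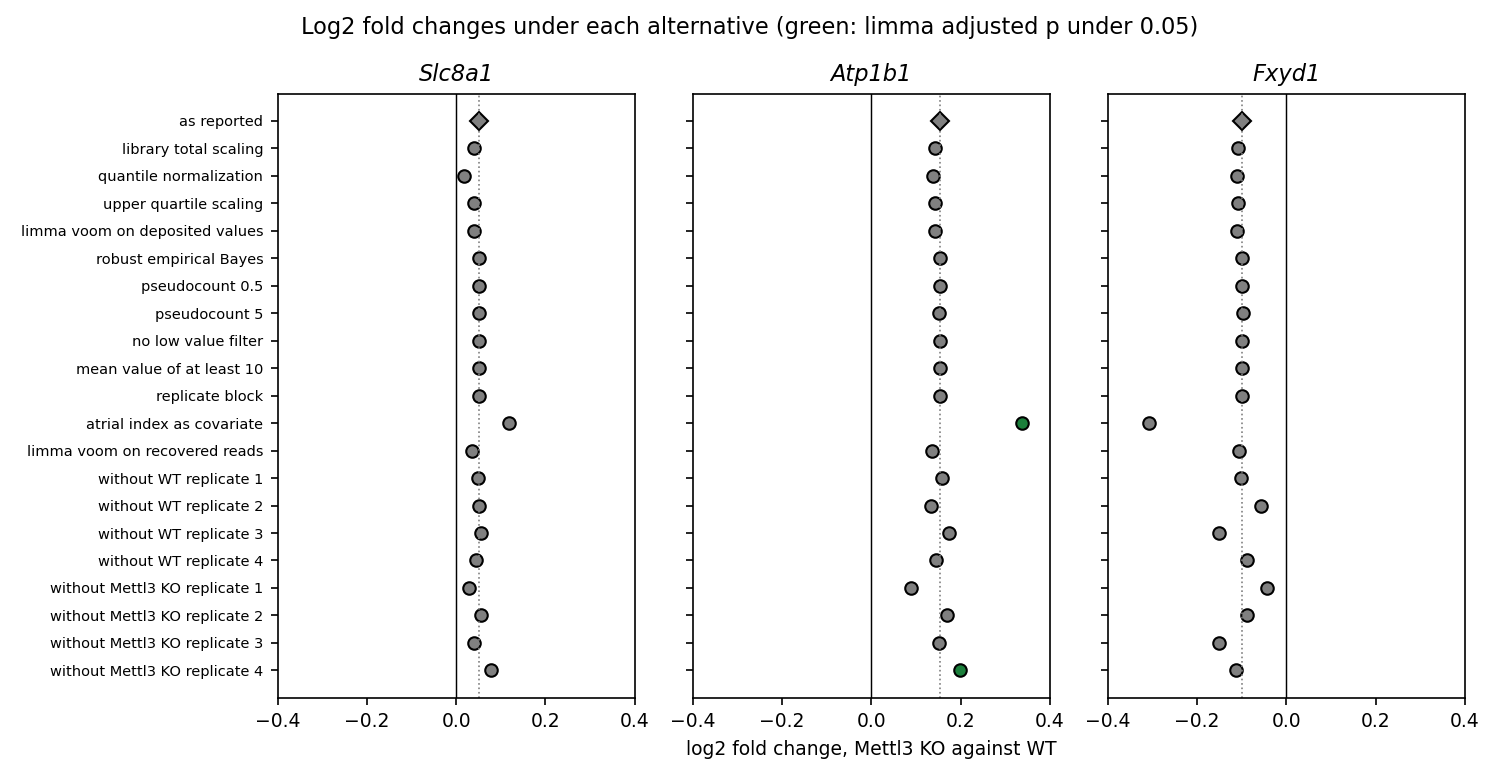
Log2 fold change of Slc8a1, Atp1b1 and Fxyd1 (horizontal axes) as reported and under 20 alternatives, 1 per row, with green symbols for a limma adjusted p under 0.05. All values of Slc8a1 and Atp1b1 were above 0 and all of Fxyd1 below it, and the test was passed for Atp1b1 alone, with the atrial index as covariate and without Mettl3 KO replicate 4.

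Each gene was also checked for neighbours within 10 kb whose reads might be mistaken for its own. The authors counted by strand and left out reads that overlapped several genes. The 3′ end of Atp1b1 overlaps 617 bases of Nme7 on the opposite strand, and Nme7 had 28 to 40 normalized read counts in WT and 29 to 39 in Mettl3 KO (log2 fold change 0.00, adjusted p = 1 by limma). The lncRNA gene Gm32391, 117 bases from Atp1b1 on the opposite strand, had 7 to 20 in all libraries. Slc8a1 overlaps 3190 bases of the lncRNA gene Gm50044 on the opposite strand, which had at most 2 in any library. Fxyd1 lies 210 bases from Fxyd7 on the same strand, where Fxyd7 had 3 to 5 in all libraries, and the nearby Lgi4 and Fxyd5 were not called.

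METTL3 methylates adenosines within a short consensus of which GGACT, written as DNA, is the best known form. Transcripts from the GENCODE vM21 annotation (GRCm38) were searched for these letters on the transcript strand. The windows nearest to the stop codon are shown for 1 principal transcript of each gene that holds GGACT, 5′ to 3′, with the match in capitals.
Slc8a1 (minus strand, coding sequence, 98 bases before the last base of the stop codon): ggagggccccGGACTgccaagctcc
Atp1b1 (minus strand, coding sequence, 541 bases before the last base of the stop codon): tgattttcgaGGACTgtggcaatgt
The Slc8a1 transcript of 3180 bases held 2 matches and the Atp1b1 transcript of 2580 bases held 1, while the Fxyd1 transcript of 620 bases held none. Of 14384 principal transcripts searched, 92.1% held at least 1, and the median was 1.05 per kb, compared with 0.63 for Slc8a1 and 0.39 for Atp1b1. The count depends on the transcript. Over the 6 protein-coding Slc8a1 transcripts, of 2017 to 18464 bases, it ranged from 1 to 14. It was 1 in both Atp1b1 transcripts and 0 in all 12 Fxyd1 transcripts. A match describes letters only, and no m6A was measured here.

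Genes for the transport of sodium, calcium and acid, and for anchoring proteins, were examined from a written list of 48 genes. The list included Slc8a1, Atp1b1 and Fxyd1. It was written with earlier results of these data known, so its shares are no independent comparison with those over all genes. Of the 48 genes 44 were in the table and 41 were tested. Of the 41, 4 were called higher and 3 lower, 17.1% in all. Over all tested genes 4.72% were called higher and 3.19% lower, and among tested genes with a mean of at least 100 the share called was 14.9%, beside 4 of 17 genes of the list at that level (23.5%). The 41 log2 fold changes had a median of -0.09, compared with -0.01 for all tested genes. With the list genes not reported here included, the median was -0.04 over 45 tested genes. The groups did not overlap for 7 of the 41, beside 11.5% of all tested genes. A list of this size was described by its counts only.

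Of the 5 tested genes for sodium-bicarbonate and chloride cotransporters, 1 was called lower. Slc4a4, which encodes NBCe1, a carrier that brings sodium and bicarbonate into the cardiomyocyte and counters acid load, fell by 0.42 on the log2 scale (SE 0.05, adjusted p = 1.88e-05 by limma). Its normalized read counts were 628, 577, 655 and 634 in WT against 481, 459, 484 and 433 in Mettl3 KO. The groups were well apart, and it was called in all 20 alternatives. The endothelial sums given above were also lower in Mettl3 KO without overlap, and their part in the values of Slc4a4 and Slc12a2 was not tested. The other 4 tested genes of this list (Slc4a7, Slc4a8, Slc12a2, Slc12a3) also had negative log2 fold changes, from -0.44 to -0.11, and none passed. The value of -0.44 was that of Slc12a3, at 1 to 2 in WT and 0 to 3 in Mettl3 KO, where single reads decide the values. Slc4a7, Slc4a8 and Slc12a2 were at -0.13 to -0.11. Slc12a2, the sodium-potassium-chloride cotransporter NKCC1, was at 497 to 545 in WT and 436 to 495 in Mettl3 KO without overlap (adjusted p = 0.174 by limma).

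Among potassium-dependent sodium-calcium exchangers, which use both the sodium and the potassium gradient to export calcium, 1 of 5 was called. Slc24a2, best known from neurons and cone photoreceptors, had normalized read counts of 29, 20, 35 and 31 in WT against 58, 46, 69 and 57 in Mettl3 KO. The groups did not overlap, and it rose with a log2 fold change of 0.99 ± 0.18 in SE (adjusted p = 0.000786 by limma), called in all 20 alternatives. Per kb of union exon length Slc24a2 stayed far below Slc8a1, at 2.35 in WT and 4.71 in Mettl3 KO.

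Sodium-proton exchangers, which expel acid in return for sodium, were called lower in 2 of 9 genes, both at low levels. Slc9a3, known from kidney and gut, had 11, 10, 12 and 10 normalized read counts in WT and 4 in each Mettl3 KO library (log2 fold change -1.23 ± 0.31 as SE, adjusted p = 0.0142 by limma), and did not pass with the atrial index (log2 fold change -1.14, adjusted p = 0.238 by limma). Slc9a5 had 27, 22, 24 and 17 in WT against 19, 9, 7 and 14 in Mettl3 KO. Its log2 fold change was -0.90 ± 0.28 as SE (adjusted p = 0.0483 by limma). The call was lost in 10 of 20 alternatives, including the atrial index (log2 fold change -0.49) and every fit without 1 library other than Mettl3 KO 1. In those fits without 1 library the log2 fold change was -1.02 to -0.69 (adjusted p by limma from 0.0538 to 0.172).

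None of the 4 plasma membrane calcium pumps, which export calcium at the cost of ATP, was called. Atp2b1 did not overlap between groups, at 679 to 717 in WT and 732 to 762 in Mettl3 KO, and had a log2 fold change of 0.10 (adjusted p = 0.169 by limma). Among 5 anchoring proteins 2 were called. Ank3, which encodes the membrane adaptor ankyrin-G, had 1131, 1131, 1060 and 1078 in WT against 1185, 1189, 1268 and 1286 in Mettl3 KO (log2 fold change 0.16 ± 0.04 as SE, adjusted p = 0.0169 by limma), with the call lost in 5 of 20 alternatives. These were the atrial index (log2 fold change 0.08, adjusted p = 0.556 by limma) and the fits without WT 3, WT 4, Mettl3 KO 3 or Mettl3 KO 4. In the latter fits the log2 fold change was 0.14 to 0.15 (adjusted p by limma from 0.0569 to 0.0747). Cav3, which encodes the muscle caveolin, had 171, 175, 159 and 164 in WT against 217, 192, 191 and 190 in Mettl3 KO. Its log2 fold change was 0.24 ± 0.07 as SE (adjusted p = 0.0483 by limma). The call was lost in 17 of 20 alternatives, including every fit without 1 library (adjusted p by limma from 0.0638 to 0.132). The log2 fold change of Cav3 was 0.19 to 0.26 in the fits without 1 library and 0.28 with the atrial index. Ank2, the ankyrin-B that holds NCX1 and the pump together in heart muscle, was at 2119 to 2283 in WT and 2184 to 2273 in Mettl3 KO (log2 fold change 0.04, adjusted p = 0.572 by limma).

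**Figure D4:**
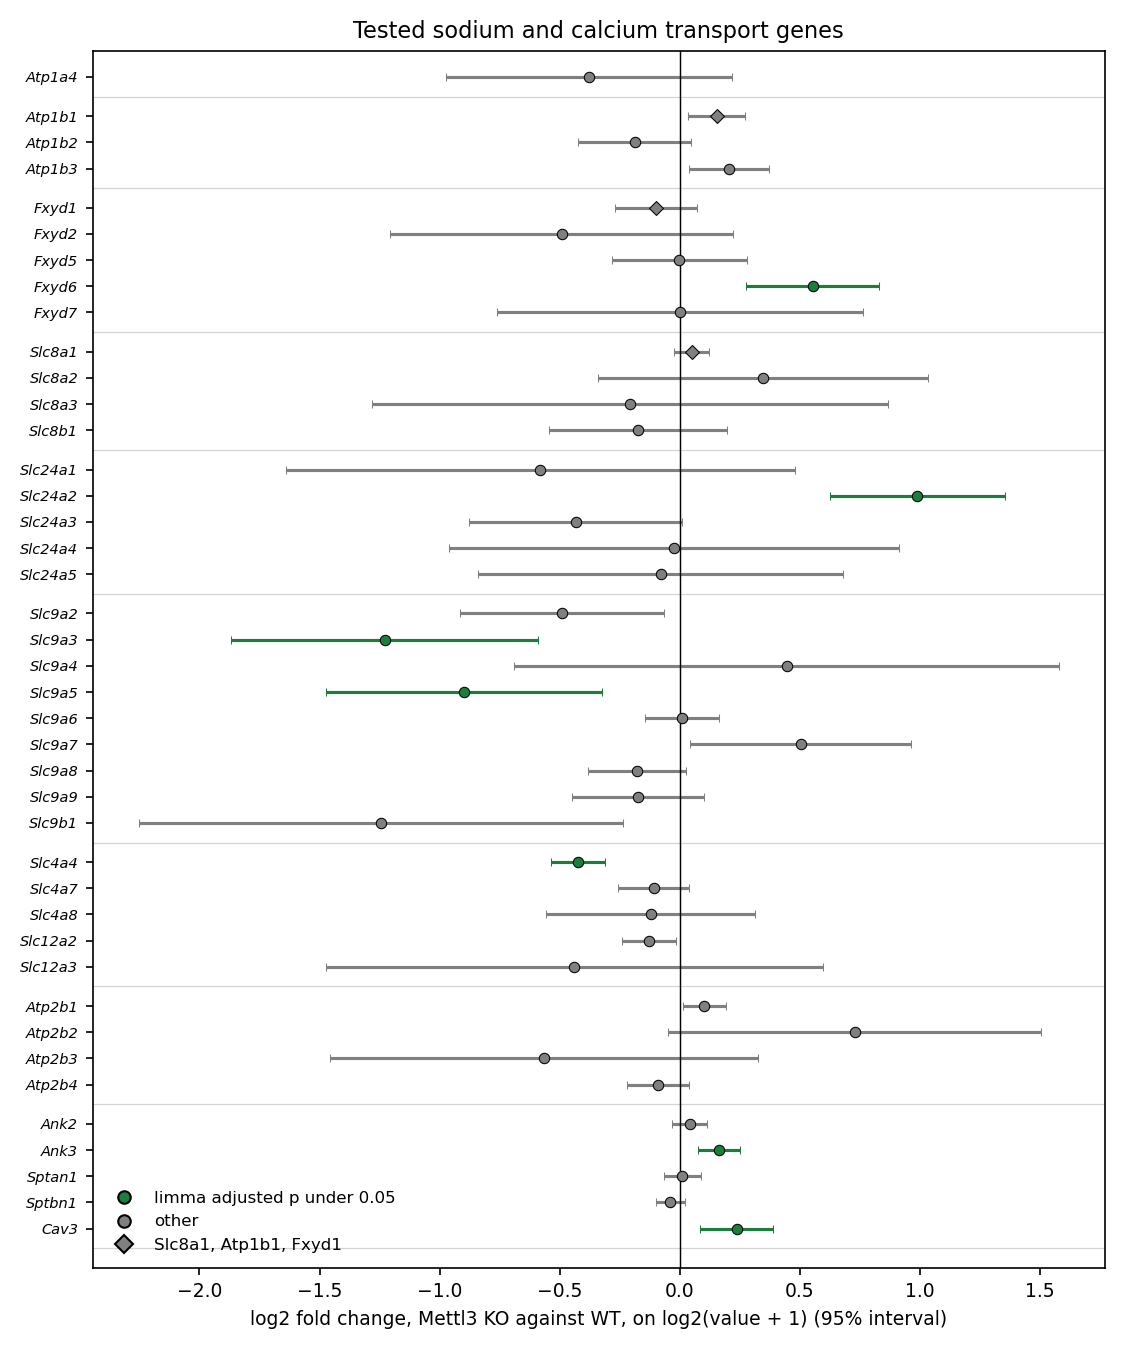
Log2 fold change of Mettl3 KO against WT on log2(value + 1) with its 95% interval for the 41 tested transport and anchoring genes, in blocks by family. Diamonds are Slc8a1, Atp1b1 and Fxyd1, and green marks the 7 genes with a limma adjusted p under 0.05, of which Fxyd6, Slc24a2, Ank3 and Cav3 were higher and Slc4a4, Slc9a3 and Slc9a5 lower.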

How the data were processed

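Libraries were stranded, 8 in number, made from total RNA of mouse hearts and read from a single end over 72 bp. Per the study's methods and the submitters' processing notes, the authors trimmed reads with Trimmomatic 0.39, aligned them with STAR 2.7.11a to mm39 (Ensembl release 109) and removed duplicates with Picard 3.1.1. Multi-mapping reads were also removed, so genes with a close copy elsewhere are under-counted. Exonic reads were then assigned by strand with featureCounts 2.0.4, and the authors normalized the totals per gene with DESeq2 1.36.0. The deposited values are a score, namely these normalized read counts rounded to whole numbers, and are not raw counts. Removing duplicates from single-end reads lowers the values of abundant or short transcripts.

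Genotype was fitted alone, on log2(value + 1), for the 20313 genes whose mean reached 1, by limma 3.58.1 (R 4.3.3) with a trend of variance on level. P values were two-sided and were adjusted by Benjamini-Hochberg over all 20313 genes, and calls were made at 0.05. A pseudocount of 1 makes fold changes of low genes smaller. The share of 1 subunit within a library was compared by exact permutation over the 8 libraries. The reads behind the values were recovered from the spacing of low values for the counting errors and for 1 alternative, and the fit and this recovery were tested on simulated data. Levels per kb used union exon lengths from GENCODE vM21 (GRCm38), matched by gene identifier, without its coordinates.

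The labels gave genotypes and replicate numbers. The genes and lists were chosen with earlier results of these data known. Named genes were the 3 genes described, the genes of the fixed transport and anchoring lists, Mettl3, genes within 10 kb of the 3, and the 3 most alike genes of each. The alternatives comprised 3 other scalings, voom, 2 filters, 2 pseudocounts, robust variance estimates, the replicate number as a block, an index of 3 atrial genes as covariate and each library left out in turn. Voom on recovered reads was chosen after seeing the data. All 8 columns of values were used. Results on 4 genes of the lists are not reported here, and counts over the lists leave them out.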

Additional observations from a re-analysis of the deposited data

Results flagged for a closer look

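In 90 groups of 4 libraries (45 genes), 8 had a highest or lowest library whose gap to its nearest neighbour took up more of the group's range than Dixon's 95% limit, where chance gives about 1 in 20, or 4.5. Slc8a1, Atp1b1 and Fxyd1 were not among them. In Mettl3 KO libraries, Cav3 was 217 in replicate 1 and 190 to 192 in the others (gap over range 0.926). In WT libraries, Slc4a8 was 25 in replicate 2 and 30 to 31 in the others (0.833). The other 6 were genes with values of at most 19, where the gap was the whole range (1) because the remaining 3 libraries were equal. These were Atp1a4 in WT (19 in replicate 4) and in Mettl3 KO (6 in replicate 1), beside 12 in all others. Fxyd3 was at 1 in WT 3, at 2 in Mettl3 KO 3 and at 0 in the others. Slc12a3 was at 1 in WT 2 and at 2 in the other WT libraries, and Slc9b2 was at 4 in WT 3 and at 0 in the other WT libraries.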

How the results depend on the processing

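Slc8a1 and Fxyd1 kept their direction and stayed short of the threshold under all 20 alternatives, with log2 fold changes of 0.02 to 0.12 and -0.31 to -0.04. Atp1b1 kept its direction but passed with the atrial index as covariate (0.34), and its log2 fold change ranged from 0.0901 to 0.199 with 1 library left out, passing without Mettl3 KO replicate 4. The cause was not tested, and the atrial index largely followed genotype, as given above. The share of Atp1b1 among β subunits stayed short of the threshold in all 10 alternatives, and its log2 difference of 0.01 ranged from 0.00094 (without Mettl3 KO replicate 1) to 0.030 (without Mettl3 KO replicate 2), with 0.0047 without WT replicate 2 and 0.022 without WT replicate 3. The number of genes called was 852 with the atrial index (589 of them among the 1607) and 1019 to 1596 with 1 library left out, lowest without Mettl3 KO replicate 3. Of the 41 transport and anchoring genes 3 to 6 were called with 1 library left out. These counts included 4 without WT replicate 3, 3 without WT replicate 4 and 4 without Mettl3 KO replicate 3. Fewer libraries entered those fits. Same-numbered libraries did not deviate together (correlations 0.07, 0.03, -0.02 and 0.06 for replicates 1 to 4, and only WT 1 correlated best with its own number). This gave no sign that the numbers pair the samples but cannot exclude it, and the labels do not say. With the replicate block 1346 genes were called, 5 of them transport or anchoring genes (Slc9a5 and Cav3 lost their calls). Under that block Atp1b1 stood at 0.15 (limma adjusted p = 0.0989), and the calls of Slc8a1 and Fxyd1 did not change. The paired test of the share cannot go below an exact permutation p of 0.125. Counting error limits Fxyd1, and for genes under about 10 normalized read counts single reads decide the values.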
